A study of Mus musculus with 6 samples.

Results

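Interferon-stimulated genes are described here in corneal epithelium with and without Rela. The set was a list of 35 symbols, classical interferon-induced genes together with their regulators, and it was taken by symbol from a table of 17866 protein-coding genes. A row was present for 34 of the 35, and Mx1 was not analysed here. The list went by name, with no threshold on a measured value. All 34 had enough reads to be tested.

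Epithelium was separated from corneas of 6-month-old C57BL/6 animals and profiled by bulk RNA-seq. Genotype was given as WT for 3 samples and as Rela-/- (KO) for 3, and the methods of the study describe the samples as independent. Floxed Rela, the gene of an NF-κB subunit with transcriptional activity, was deleted by Krt14-Cre in the study. The Cre is active in K14-expressing epithelium of the cornea, limbus, conjunctiva and skin, so leukocytes, stromal cells and vessels would keep their Rela. Whether the WT animals carried Cre or a floxed allele is not given in the sources used here, nor is the number of animals behind a sample. The question put to these data is how the interferon-stimulated genes differed between the genotypes.

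Interferons are secreted proteins that bind receptors on the cell surface and activate the kinases JAK1, JAK2 and TYK2. Type I and type III interferons act through a complex that holds STAT2 and IRF9 and binds the interferon-stimulated response element (ISRE) in promoters, while interferon gamma acts through the gamma-activated site (GAS). The induced genes encode sensors of viral nucleic acid, enzymes that stop translation or degrade RNA, and proteins that act on viral entry and replication. Many are also expressed at a low, steady level in barrier epithelia such as the cornea. NF-κB binds its own element, the κB site, and is known to act with interferon regulatory factors at several of these promoters.

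Promoter sequence was taken from RefSeq (GRCm38.p6), as windows from 250 bases before to 50 bases after each annotated start. A window was present for 26 of the 34 members. The ISRE core (GAAA, then NN for any pair of bases, then GAAA), searched on both strands, was present in 14 of the 26 (53.8%) and in 532 of 13967 genes with a window (3.81%). Of the members with a window, it was present in 10 of 19 that were lower in KO and in 4 of 7 others. These 4 were Bst2, Gbp2, Gbp3 and Oas1a, which did not pass the test. Ifit2, Isg20 and Samhd1, which were higher in KO, had no ISRE core in their windows but did have a GAS core. The GAS core (TTCNNNGAA, both strands) was present in 8 of the 26 (30.8%), against 8.59% of all genes with a window, and in 3 of the 19 lower members and 5 of the 7 others. The κB consensus of NF-κB, on both strands, was present in 7 of the 26 (26.9%), against 11.9%, and in 3 of the 19 lower members and 4 of the 7 others. These matches are descriptions of letters and not of binding.

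The stretches below are shown because they carry the ISRE core in 5 members that were lower in KO and in 2 that did not pass the test. They end before the start site, run 5′ to 3′ on the strand of the gene, and have each match to the core in capitals, also where it lies on the opposite strand.
Stat2, chr10:128270251-128270310, plus strand: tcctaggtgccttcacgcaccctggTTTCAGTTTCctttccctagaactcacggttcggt
Oas3, chr5:120777700-120777759, minus strand: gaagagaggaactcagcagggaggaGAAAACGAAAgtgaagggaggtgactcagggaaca
Ifit1, chr19:34640760-34640838, plus strand: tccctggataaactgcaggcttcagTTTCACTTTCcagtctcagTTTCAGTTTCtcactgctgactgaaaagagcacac
Isg15, chr4:156200850-156200921, minus strand: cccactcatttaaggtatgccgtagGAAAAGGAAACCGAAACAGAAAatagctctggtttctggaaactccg
Rsad2, chr12:26456538-26456597, minus strand: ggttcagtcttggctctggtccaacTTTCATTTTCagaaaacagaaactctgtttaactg
Bst2, chr8:71537562-71537627, minus strand: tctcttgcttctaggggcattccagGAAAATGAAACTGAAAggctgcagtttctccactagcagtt
Gbp3, chr3:142559974-142560039, plus strand: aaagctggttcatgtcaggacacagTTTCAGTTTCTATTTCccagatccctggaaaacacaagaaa
In Isg15 3 overlapping matches formed a single run, which began 78 bases before the start, and in Ifit1 the pair of matches lay between 104 and 76 bases before it. The matches of Bst2 lay between 130 and 115 bases before the start and those of Gbp3 between 45 and 30 bases before it.

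Members with a match to the κB consensus before an annotated start included Oas3 and Oasl1, which were lower in KO. Also among them were Ifit2 and Isg20, which were higher, and Bst2, which did not pass. The matches of Oasl1 and Isg20 lie before an annotated start but inside the deposited span of the gene, which begins at 114923177 and 78913424. Those of Ifit2 and Isg20 are shown because both genes were higher in KO, with the match in capitals.
Ifit2, chr19:34550444-34550481, plus strand: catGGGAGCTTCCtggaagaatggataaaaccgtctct
Isg20, chr7:78913631-78913690, plus strand: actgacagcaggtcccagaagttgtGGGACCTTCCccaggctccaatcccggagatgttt
The match of Ifit2 overlapped a GAS core, and in Bst2 a GAS core overlapped both a κB match and an ISRE core.

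Totals lay between 20158404 and 20880347 estimated counts per library, and TMM factors between 0.952 and 1.05. Rela had 85.7, 85.8 and 87.8 CPM (counts scaled to the library total and the TMM factor) in WT 1, 2 and 3, and 16.1, 11.2 and 15.6 in KO 1, 2 and 3, which was 16.5% of the WT mean (log2 fold change -2.60 ± 0.14 SE, adjusted p = 2.74e-06). Of 13305 genes tested by edgeR's quasi-likelihood test, 62.0% passed at a Benjamini-Hochberg adjusted p of 0.05, 30.2% lower and 31.8% higher in KO. The tissue itself differed. Of 5 corneal epithelial markers 5 fell, and their summed level was 66800 to 67800 CPM in WT and 11200 to 13700 CPM in KO. Of 5 epidermal markers tested 5 rose, from sums of 15.1 to 20.3 CPM to sums of 11600 to 24000 CPM. The part of this shift in the differences below was not tested. In bulk RNA, fewer cells of a type and less RNA per cell cannot be told apart.

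Most of the 34 interferon-stimulated genes of the set were lower in KO. At an adjusted p of 0.05, 25 of the 34 fell (73.5%, against 30.2% of all genes tested) and 3 rose (8.82%, against 31.8%), while 6 did not pass. The median log2 fold change of the 34 was -0.98, beside 0.01 over all genes tested. All 3 KO libraries lay below all 3 WT libraries in 25 members, where 33.9% of all genes did so, and above them in 3 members, where 34.7% did. At the threshold used in the study, an adjusted p of 0.001 and a fold of 2, 7 members were lower (Irf7, Stat2, Ddx58, Ifih1, Oasl1, Dtx3l and Trim30a) and 1 was higher (Samhd1). Of all genes tested, 8.24% were lower and 11.6% higher by that rule. That count depended on the test, since DESeq2 gave 16 lower members, glmTreat against a fold of 2 gave 0, and the fit without KO replicate 1 gave 4. The count of 25 was between 24 and 26 in every alternative fit but glmTreat, which was read only at the study threshold.

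**Figure D1:**
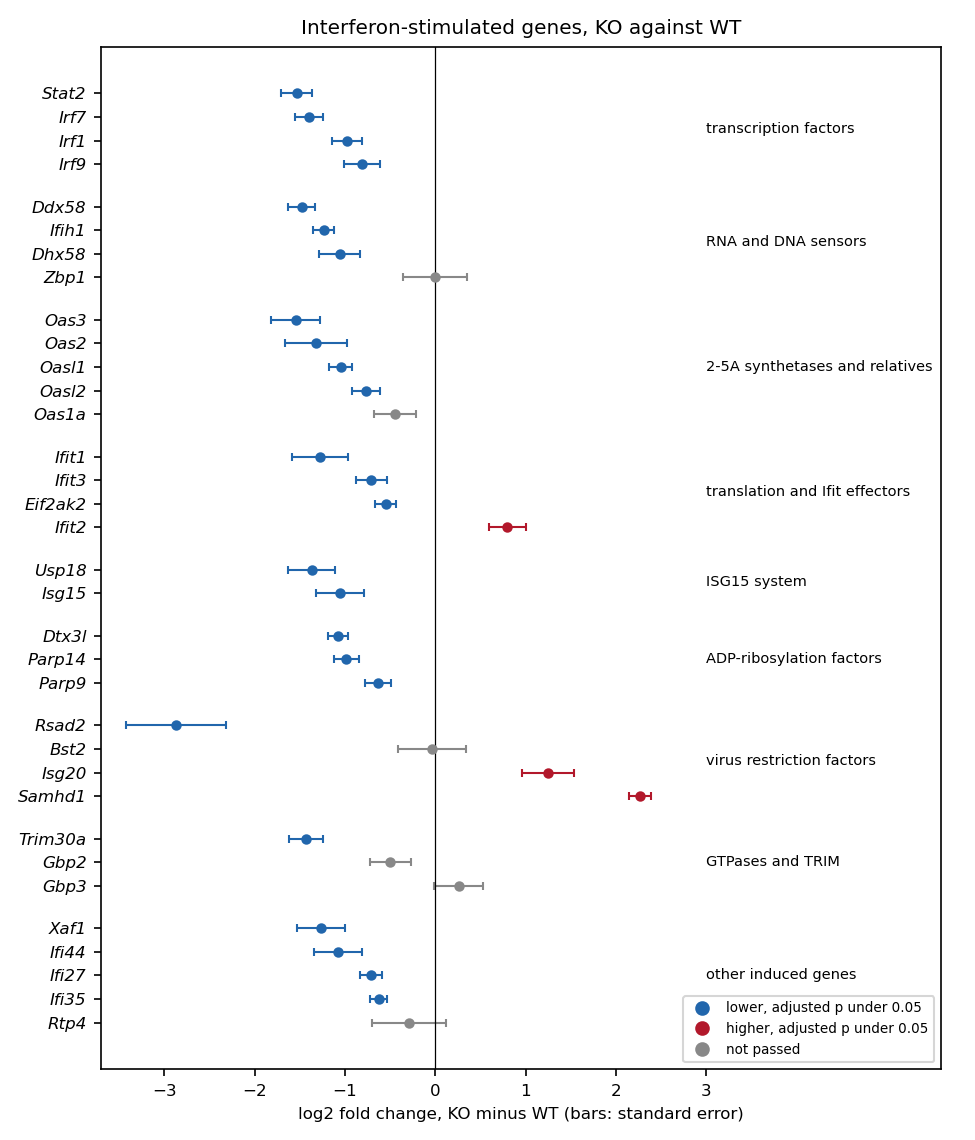
Log2 fold change of the 34 members, KO minus WT, from edgeR's quasi-likelihood fit, grouped by role, with bars for the standard error. Blue points are members lower and red points members higher at an adjusted p of 0.05, and grey points did not pass. 25 points are blue, and the 3 red points are Ifit2, Isg20 and Samhd1.

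The 4 transcription factors of the set were all lower in KO. Stat2, a subunit of the factor that binds the ISRE, had 41.1, 58.0 and 40.4 CPM in WT and 16.5, 13.6 and 18.1 CPM in KO. The highest KO value was below the lowest WT value, and the KO mean was 34.5% of the WT mean (log2 fold change -1.53 ± 0.17 SE, adjusted p = 0.000115). Irf9, the DNA-binding partner of STAT2, had 44.8, 69.9 and 47.2 CPM in WT and 35.5, 24.1 and 32.5 CPM in KO. Its groups did not overlap, but WT 2 stood above the other WT libraries and the difference was smaller (log2 fold change -0.82 ± 0.20 SE, adjusted p = 0.00749). Irf7, the factor that amplifies the production of type I interferon, had 74.3, 98.4 and 84.8 CPM in WT and 32.2, 26.5 and 38.8 CPM in KO (log2 fold change -1.40 ± 0.16 SE, adjusted p = 0.000119). Irf1, which binds the same element and is itself a target of NF-κB in other cells, had 269, 222 and 287 CPM in WT and 105, 131 and 160.0 CPM in KO, so that 50.8% of the WT mean was left (log2 fold change -0.98 ± 0.17 SE, adjusted p = 0.00105).

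Of the nucleic acid sensors, the 3 RIG-I-like receptors fell and Zbp1 did not pass. Ddx58, which encodes RIG-I, had 103, 114 and 117 CPM in WT and 35.5, 34.6 and 49.5 CPM in KO (log2 fold change -1.48 ± 0.15 SE, adjusted p = 5.71e-05). Ifih1, which encodes MDA5, a sensor of long double-stranded RNA, had 58.9, 72.8 and 67.9 CPM in WT and 27.0, 25.9 and 31.7 CPM in KO. The groups of both genes were separate, with KO 3 above the other KO libraries. Dhx58, which encodes LGP2, a regulator of the other two receptors, kept 48.0% of its WT mean (adjusted p = 0.00389). Zbp1, a sensor of Z-form nucleic acid, had 5.13, 14.0 and 9.14 CPM in WT and 8.46, 6.97 and 12.8 CPM in KO. Its groups overlapped fully, with means of 9.42 and 9.40 CPM.

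The oligoadenylate synthetases make the messenger that activates RNase L. Of the 5 members that are synthetases or synthetase-like genes, 4 fell. Oas3 had 23.5, 47.1 and 35.2 CPM in WT and 14.2, 8.77 and 13.2 CPM in KO (log2 fold change -1.55 ± 0.27 SE, adjusted p = 0.00121). Oas2, whose span lies next to Oas3 on chromosome 5, had 21.7, 52.5 and 30.4 CPM in WT and 18.1, 9.03 and 14.8 CPM in KO. WT 2 was the highest library for both, and the groups of neither overlapped. Oas1a, in the same cluster (Oas1a at chr5:120896256-120907544 and Oas3 at chr5:120753098-120777659, GRCm38), had 14.4, 25.4 and 16.3 CPM in WT and 12.9, 11.5 and 16.8 CPM in KO. Its groups overlapped, and it did not pass (log2 fold change -0.45 ± 0.23 SE, adjusted p = 0.123), although with a correction for gene length it did (adjusted p = 0.0291). The synthetase-like genes Oasl1 and Oasl2, which lie 10931 bases apart on the same chromosome, fell to 48.3% and 58.8% of their WT means.

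The Ifit genes encode proteins that bind viral RNA and block its translation, and they did not move together. Ifit1 had 19.0, 41.8 and 22.3 CPM in WT and 10.9, 8.82 and 14.5 CPM in KO (log2 fold change -1.28 ± 0.31 SE, adjusted p = 0.00668, and -0.85 without WT replicate 2). Ifit3 had 35.1, 52.7 and 48.3 CPM in WT and 25.4, 25.1 and 32.8 CPM in KO (log2 fold change -0.71 ± 0.17 SE, adjusted p = 0.0068). Ifit2, 6607 bases from Ifit3 on chromosome 19, went the other way. It had 4.08, 4.23 and 2.75 CPM in WT and 5.77, 6.37 and 7.08 CPM in KO, and each KO library was above each WT library (log2 fold change 0.80 ± 0.21 SE, adjusted p = 0.00938, and 0.39 on log2(FPKM + 1)). Per transcript length Ifit2 was also the scarcest of the 3, at 0.96 ± 0.23 FPKM in WT (SD, n = 3), against 10.8 ± 4.80 FPKM for Ifit1 and 23.6 ± 4.43 FPKM for Ifit3. Eif2ak2, which encodes PKR, the kinase that stops translation on sensing double-stranded RNA, fell to 68.3% of its WT mean (log2 fold change -0.55, and -0.35 with the length correction).

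Isg15, a ubiquitin-like protein that is attached to other proteins, had 14.7, 27.9 and 19.3 CPM in WT and 10.4, 7.09 and 12.4 CPM in KO. Usp18, the protease that removes ISG15 and also restrains the type I receptor, had 8.11, 14.1 and 8.71 CPM in WT and 4.10, 3.11 and 4.73 CPM in KO. In both the groups were separate, and 48.2% and 38.6% of the WT means were left (log2 fold changes -1.05 ± 0.27 SE and -1.37 ± 0.26 SE, adjusted p = 0.00855 and 0.00182). With the length correction Isg15, a short gene, was at -1.83. Of the genes for ADP-ribosylation, Dtx3l, an E3 ligase that works as a partner of PARP9, fell most evenly, from 128, 121 and 139 CPM to 54.3, 59.6 and 69.8 CPM (log2 fold change -1.08 ± 0.11 SE, adjusted p = 8.01e-05). Parp9 kept 64.6% of its WT mean and Parp14 kept 50.6% (log2 fold change -0.98, and -0.63 with the length correction). The spans of Parp9 and Dtx3l overlap by 558 bases in the table. The span of Ifi27 lies inside that of the related gene Ifi27l2a, and those of Ifit1 and Ifit3 overlap Ifit genes outside the set. Whether counting used strand is not stated, so reads from a shared part may have been given to either gene.

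The virus restriction factors held both extremes of the set. Rsad2, which encodes viperin, an enzyme that makes a chain-terminating nucleotide, was counted 36, 85 and 39 times in WT against 2, 11 and 7 times in KO. The KO mean was 13.4% of the WT mean (log2 fold change -2.87 ± 0.55 SE, adjusted p = 0.00214), at counts low enough that KO 1 lay under the limit of 3 counts. On the log2(FPKM + 1) scale, which understates low genes, the difference was -0.60, and on log2(FPKM + 0.1) it was -2.01. Samhd1, which encodes an enzyme that depletes deoxynucleotides, had 56.6, 63.1 and 74.7 CPM in WT and 322, 304 and 307 CPM in KO. The KO libraries were close together, and their mean was 4.80 times the WT mean (log2 fold change 2.26 ± 0.12 SE, adjusted p = 2.42e-06). Isg20, an RNA exonuclease, was counted 29, 24 and 28 times in WT against 55, 43 and 81 times in KO (log2 fold change 1.25 ± 0.29 SE, adjusted p = 0.00544), and the difference was 0.78 with the length correction and 0.70 on log2(FPKM + 1). Bst2, which encodes tetherin, had 2.34, 4.56 and 4.21 CPM in WT and 3.39, 2.06 and 5.38 CPM in KO, with overlapping groups.

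Of the GTPases, which act against parasites and bacteria inside cells, Gbp2 had 51.3, 50.6 and 63.6 CPM in WT and 30.0, 32.2 and 55.0 CPM in KO. KO 3 lay among the WT libraries while KO 1 and 2 lay below them, and Gbp2 did not pass (log2 fold change -0.50 ± 0.22 SE, adjusted p = 0.0832). It passed in 5 of 17 alternative fits, with adjusted p of 0.00186 without KO replicate 3 (log2 fold change -0.83), 0.011 with the replicate block, 0.038 with total counts only, 0.0314 on log2(FPKM + 1) and 0.0282 on log2(FPKM + 0.1). Gbp3 differed by 0.26 ± 0.27 SE (adjusted p = 0.432), again with KO 3 as its highest library. Trim30a, a TRIM protein that dampens inflammatory signalling, had 30.7, 37.5 and 40.8 CPM in WT and 12.7, 10.7 and 17.0 CPM in KO (log2 fold change -1.43 ± 0.18 SE, adjusted p = 0.000236). Of the other induced genes, Xaf1, a protein that favours apoptosis, kept 41.6% of its WT mean, Ifi44 47.5%, Ifi27 61.2% and Ifi35 64.7%, with adjusted p between 0.00061 and 0.00765. The length correction moved Ifi27 from -0.71 to -1.21 on the log2 scale. Rtp4, a chaperone of membrane receptors, had 7.89, 23.9 and 12.9 CPM in WT and 13.3, 7.29 and 16.0 CPM in KO, and its groups overlapped.

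**Figure D2:**
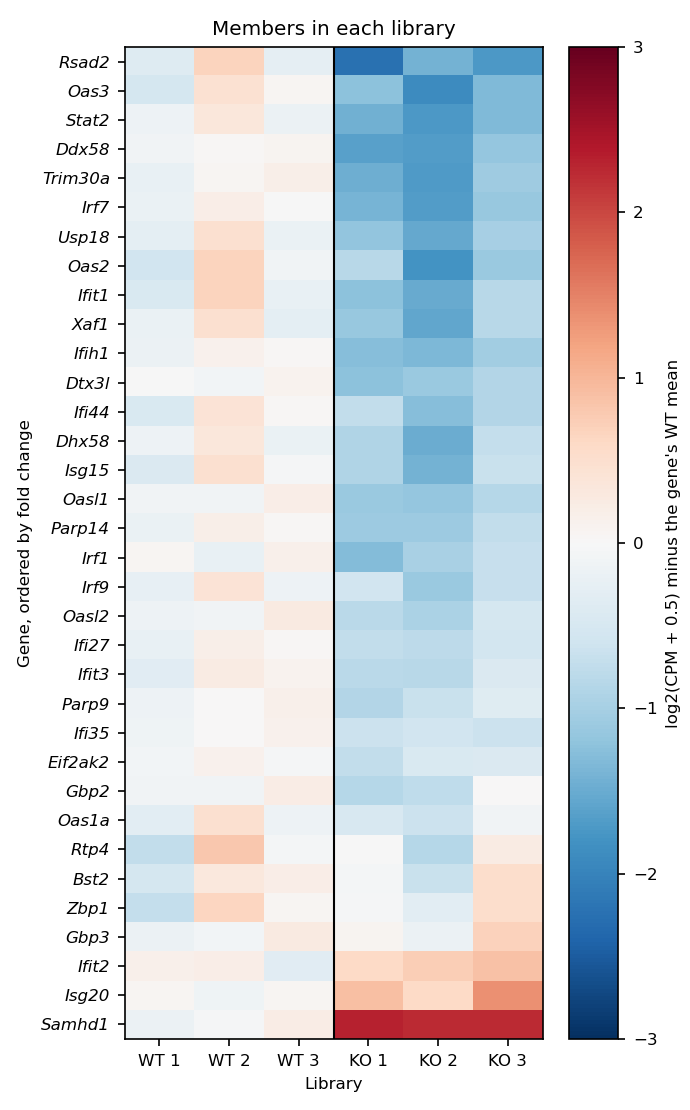
Each row is a member and each column a library, and the colour gives log2(CPM + 0.5) minus the mean of the gene in WT. The KO columns are blue in the upper 25 rows and red in the lowest 3, and WT 2 is the reddest WT column for many of the genes that are lower in KO.

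Within a genotype the members tended to share an order of libraries. WT 2 was the highest WT library for 22 of the 34 members, against 33.2% of all genes tested, and WT 1 was the highest for 1. KO 3 was the highest KO library for 27 members (31.0% of all genes) and the lowest for 0, while KO 2 was the lowest for 25 (34.5%). With Samhd1 left out, the summed level of the members was 1680, 1970 and 1990 CPM in WT 1, 2 and 3 and 908, 879 and 1160 CPM in KO 1, 2 and 3. The counts of 25 lower and 3 higher were the same without WT replicate 2, and the median log2 fold change was then -0.82.

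Levels between genes were compared only as FPKM, which divides by transcript length. In WT, Irf1 (126 ± 15.6 FPKM, SD, n = 3), Oasl2 (104 ± 14.6) and Oasl1 (89.8 ± 9.81) were the highest members, and the mean ± SD ranges of neighbours in this order overlapped. Rsad2 was the lowest, at 0.673 ± 0.344 FPKM. In KO the first place was taken by Samhd1, which rose from 16.8 ± 2.06 FPKM, rank 14, to 76.8 ± 1.44 FPKM. Irf1, Oasl2 and Oasl1 followed it in KO in the same order as in WT, at 59.6 ± 12.5, 57.4 ± 8.27 and 40.5 ± 4.59 FPKM.

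**Figure D3:**
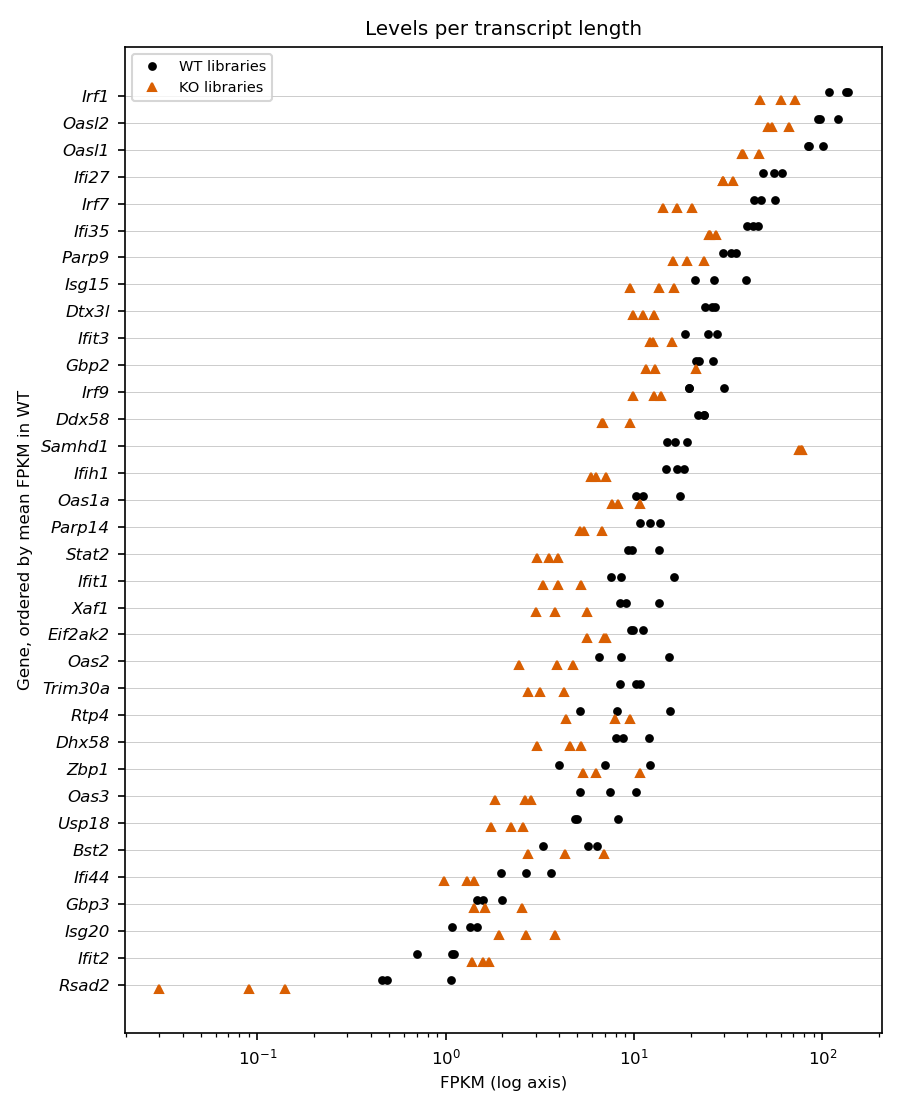
FPKM of each member in each library on a log axis, with members ordered by their mean in WT. Circles are the 3 WT libraries and triangles the 3 KO libraries. Samhd1 is the only member whose triangles lie far to the right of its circles, and Rsad2 the member at the lowest level.

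The rest of the pathway was read from lists of related genes. Of 21 interferon genes 14 had a row, and none had enough reads to be tested. Ifnz had up to 9 counts in a library, Ifna13 up to 5, and Ifna2, Ifna6, Ifna7, Ifna15, Ifna16, Ifnab, Ifne, Ifng and Ifnl3 had 3 or fewer in every library. For the 14 with a row, a difference in ligand transcripts between the genotypes was therefore not detectable at this depth. The interferon genes without a row could not be assessed. The receptors were well measured. Ifnlr1, the specific chain of the receptor for type III interferon, which is largely an epithelial receptor, was counted 808, 739 and 866 times in WT against 349, 344 and 324 times in KO (log2 fold change -1.14 ± 0.10 SE, adjusted p = 4.26e-05). Its partner chain Il10rb fell less (log2 fold change -0.36 ± 0.11 SE, adjusted p = 0.0209) and did not pass without WT replicate 2, KO replicate 2 or KO replicate 3 (adjusted p up to 0.077), which left 2 lower receptors. Also lower was Ifngr2, a chain of the interferon gamma receptor (log2 fold change -0.79 ± 0.10 SE, adjusted p = 0.000171). The type I receptor chains did not pass, with log2 fold changes of -0.21 ± 0.08 SE for Ifnar1 (adjusted p = 0.0557, past the test only with total counts) and 0.07 ± 0.17 SE for Ifnar2, and neither did Ifngr1 (0.05 ± 0.23 SE).

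Of 11 genes of signal transduction, 8 fell and 3 rose (72.7% and 27.3%, against 30.2% and 31.8% of all genes tested). Tyk2, a kinase of the type I and type III receptors, was counted 1256, 1097 and 962 times in WT against 427, 394 and 373 times in KO (log2 fold change -1.36 ± 0.12 SE, adjusted p = 2.86e-05). Ptpn6, which encodes the phosphatase SHP-1, fell by 1.06 on the log2 scale. Socs3, a feedback inhibitor of JAK kinases that also responds to other cytokines, was counted 10, 28 and 10 times in WT against 548, 395 and 514 times in KO (log2 fold change 5.02 ± 0.33 SE, adjusted p = 7.11e-06), and Socs1, the inhibitor best known for interferon signals, rose by a log2 fold change of 1.08 ± 0.29 SE. Of 17 tested genes of nucleic acid sensing 7 fell and 3 rose (41.2% and 17.6%, against the same shares of all genes). Tlr3, a receptor for double-stranded RNA in endosomes, fell by 1.22 on the log2 scale and Adar, an RNA-editing enzyme, by 0.86. Tmem173, which encodes STING, rose from counts of 16, 20 and 16 to 126, 110 and 134, and Trex1, a DNA exonuclease, had a log2 fold change of 0.79 (adjusted p = 0.00225), which with the length correction was 0.37 and did not pass (adjusted p = 0.0648). Without WT replicate 2 the count of risers in this list was 5.

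Of 45 further genes induced by type I interferon that were tested, 19 fell and 9 rose, with a median log2 fold change of -0.49. Cmpk2, a nucleotide kinase encoded beside Rsad2 in mammals, was counted 36, 46 and 28 times in WT against 4, 5 and 7 times in KO, and Trim5 had 260, 187 and 234 in WT and 55, 69 and 66 in KO. On the other side were Ifitm3, which blocks viral entry at membranes, with 226, 869 and 452 in WT and 2305, 2034 and 2577 in KO, and Ifi27l2a, with 24, 46 and 41 in WT and 204, 72 and 165 in KO. Ifi27l2a lost its call with the length correction, where its log2 fold change went from 2.09 to 0.88 (adjusted p = 0.0968). Of 11 tested genes of the list for interferon gamma, 5 fell and 1 rose (45.5% and 9.09%, against the same shares of all genes). Gbp7 (log2 fold change -1.61 ± 0.20 SE) and Irgm2 (-1.52 ± 0.36 SE) fell, and Ciita, the master regulator of MHC class II genes, rose from counts of 2, 2 and 5 to 29, 14 and 33. Gbp8 had 3.53, 1.15 and 4.70 CPM in WT and 1.33, 1.11 and 1.44 CPM in KO. Its groups overlapped, and its call (log2 fold change -1.27 ± 0.46 SE, adjusted p = 0.0402) was lost in 8 of 16 alternative fits, 5 of them with a library left out (adjusted p up to 0.16). The counts of this list were not stable, with 3 lower without WT replicate 3 or KO replicate 2, and with 3, 4, 2 and 5 higher without WT replicate 1, WT replicate 2, WT replicate 3 and KO replicate 2.

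**Figure D4:**
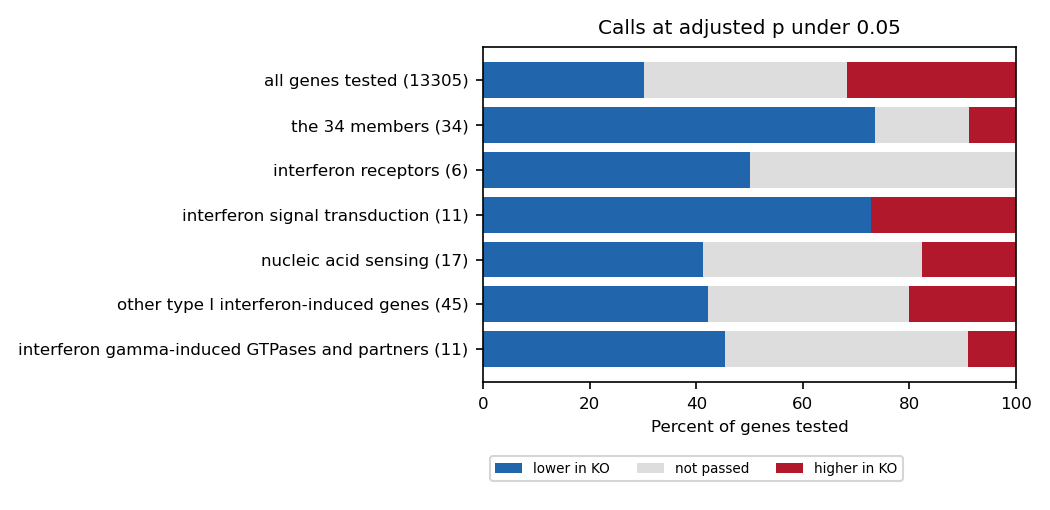
Percent of the genes tested that were lower (blue), not past the test (grey) or higher (red) in KO at an adjusted p of 0.05, for all genes, the members and the related lists, with the number tested in parentheses. Of the members, 73.5% were lower, against 30.2% of all genes.

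Markers of other cells moved with the genotype too. Ptprc, which encodes CD45, was counted 13, 5 and 8 times in WT against 105, 87 and 123 times in KO, Csf1r had 19, 2 and 17 in WT and 148, 151 and 154 in KO, and Cd3e had 0, 2 and 2 in WT and 9, 6 and 15 in KO. Cd3e had too few reads to be tested. Of 8 general leukocyte markers 7 rose. Their summed level was 39.0 to 140.0 CPM in WT and 124 to 228 CPM in KO, but most of it in WT was Arhgdib (33.2 to 136 CPM), the marker that did not pass. Of 8 tested markers of macrophages and monocytes 6 rose and 1, Itgam, fell. Their sum was 269 to 341 CPM in WT and 206 to 287 CPM in KO, of which Itgam gave 233 to 307 CPM in WT and 137 to 202 CPM in KO, and Itgam did not pass with the length correction. The sum of 7 natural killer cell markers was 0.0472 to 0.093 CPM in WT and 1.46 to 2.13 CPM in KO, and none had enough reads to be tested. Of 2 tested markers of endothelium 1 rose, Pecam1, which was counted 1, 3 and 4 times in WT against 15, 14 and 16 times in KO. Of 6 tested markers of keratocytes and fibroblasts 5 rose and 1 fell, Pdgfra, which kept 9.23% of its WT mean. Col1a1 was counted 1, 26 and 8 times in WT against 27, 49 and 51 times in KO and lost its call in 4 fits with a library left out (adjusted p up to 0.103). Of 6 tested markers of dendritic and Langerhans cells 3 rose and 1, Epcam, fell. Their sum was 76.9 to 82.2 CPM in WT and 100 to 138 CPM in KO. Epcam gave 66.3 to 71.3 CPM of it in WT and 39.3 to 51.4 CPM in KO. Cd74 gave 4.61 to 10.5 CPM in WT and 40.8 to 77.9 CPM in KO. Of 5 tested neutrophil markers 4 rose and 1, Ly6g, fell. The neutrophil list summed to 8.97, 72.6 and 15.6 CPM in WT 1, 2 and 3 and 191, 618 and 353 CPM in KO 1, 2 and 3, and in WT 2 and in KO nearly all of this was S100a8 and S100a9, with 7.44 and 58.8 CPM in WT 2. Which cells gave the S100a8 and S100a9 reads was not tested. Ngp and Retnlg of this list had too few reads to be tested. Both had 0 counts in each WT library, and in KO Ngp had 0, 0 and 1 and Retnlg 0, 9 and 4. Pdgfra, Arhgdib, Epcam, Cd74, Ly6g, S100a8 and S100a9 are named because their values set these sums or went against their list. Ngp and Retnlg are named because they were too low to be tested. The part of these cells in the member differences was not tested.

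**Figure D5:**
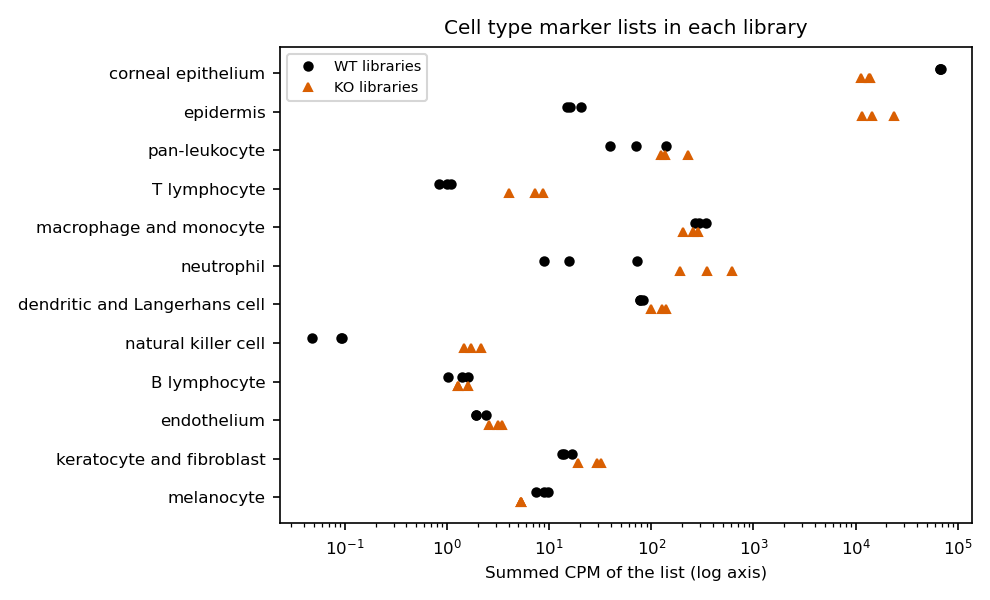
Summed CPM of 12 lists of cell type markers in each library on a log axis, with circles for WT and triangles for KO. The corneal sum falls from 66800 CPM or more to 13700 CPM or less, and the melanocyte sum is also lower in all 3 KO libraries. The epidermal, T lymphocyte, neutrophil, dendritic and Langerhans cell, natural killer cell, endothelial, and keratocyte and fibroblast sums are higher in all 3. The pan-leukocyte, macrophage and monocyte, and B lymphocyte sums overlap between the genotypes.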

How the data were processed

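Reads were cleaned by the authors with SOAPnuke, mapped by Bowtie2 2.2.5 and quantified per gene by RSEM 1.2.12. The submitters' processing notes name mm9, whereas the coordinates of the deposited table are those of GRCm38. The deposited estimated counts and FPKM values were used. The authors' own fold changes and p-values in the table were not used. After rounding, genotype was tested without covariates by glmQLFit and glmQLFTest of edgeR 4.0.16 (R 4.3.3, TMM, filterByExpr), and Benjamini-Hochberg adjustment covered 13305 genes. An SE is the size of a log2 fold change over the root of its F value. Estimated counts were not whole in every library for 16 members. Among them were Oas, Ifit, Gbp and Trim30 genes, but also Samhd1, Ddx58, Dtx3l and Isg15. RSEM shares reads between similar genes, and the values of these members are uncertain to that extent. The test was tried on simulated counts with few changed genes, as many up as down. Far more genes passed in the real data, so that trial does not cover their setting. All members, Rela, every receptor, every ligand with a count, up to 4 called genes of largest absolute log2 fold change per related list, and 6 defining markers were named. The members and lists were chosen with earlier results of these data known. Alternatives were DESeq2 1.42.0, glmTreat, RLE factors, total counts, TMM without the 20 highest genes, other filters, robust dispersion, limma 3.58.1 on log2(FPKM + 1) and log2(FPKM + 0.1), a length correction, a replicate block and leaving out each library. Tables and plots were made with Python 3.11.15, pandas 2.3.3 and matplotlib 3.10.9. A further related gene and a promoter stretch are not reported here.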

Additional observations from a re-analysis of the deposited data

How the results depend on the processing

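With 3 libraries per genotype, none of the 25 lower and 3 higher members lost its call or direction in an alternative fit, Rela included. This counts the fits that tested the gene and leaves out glmTreat, which was read only at the study threshold. At a mean count of at least 50, Rsad2 and Isg20 were not tested. Lower members at the study threshold numbered 16 with DESeq2, 11 with total counts only, 11 on log2(FPKM + 0.1) and 0 with glmTreat, and 4 to 9 with a library left out. The count of 3 risers in nucleic acid sensing was 5 with no filter on low counts and 3 to 5 with a library left out. For the interferon gamma list the single riser became 3 with no filter and 0 at a mean count of at least 50 or with the length correction, and with a library left out 1 to 5 rose and 3 to 7 fell. Among members that did not pass, Zbp1 changed sign to 0.01 with DESeq2, 0.01 with RLE factors, 0.03 at a mean count of at least 50, 0.01 on log2(FPKM + 1) and 0.02 on log2(FPKM + 0.1). With a library left out Zbp1 ranged from -0.29 to 0.40, Bst2 from -0.44 to 0.24, Rtp4 from -0.59 to 0.23 and Gbp3 from -0.06 to 0.44. Total counts only moved the median of all genes to -0.09. Replicate numbers only count samples, and deviations of equally numbered libraries correlated at 0.0345, -0.00998 and 0.0606 across genes. With the replicate block 26 members were lower and 3 higher, Zbp1 was at 0.06, and Gbp2 passed (adjusted p = 0.011). In the fits without a library, the group with 2 left relies on a spread pooled over both groups. The cause of these shifts was not tested. Genes with few reads, such as Rsad2 and the ligands, are limited by depth.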
